A study of Mus musculus with 14 samples.

Results

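Glucocorticoid signalling was followed in the muscle layers of the mouse gut, through 10 genes: the receptor Nr3c1, the activating enzyme Hsd11b1, and the response genes Fkbp5, Tsc22d3, Per1, Sgk1, Cebpd, Zbtb16, Errfi1 and Apod. They are 10 of 40481 genes in the bulk count table, and all 10 were among the 20886 that passed a filter on low counts. The 10 names were listed by hand, and several were listed because their bulk counts were higher in the knockout libraries of both tissues. Their difference between knockout and wild-type bulk libraries is therefore given as a description, without a test. The members were tested on the difference between the wild-type tissues, and the nuclei are given beside the bulk values.

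The samples were the muscularis, the muscle layers of the gut wall, of C57BL/6 mice, separated by hand and flash frozen. The 12 bulk RNA libraries fell into 4 groups of 3: Carmn iKO colon (m1, t4 and t6), WT mTmG colon (t1, t6 and t7), Carmn iKO jejunum (m1, t1 and t4) and WT mTmG jejunum (t1, t6 and t7). Carmn encodes a long non-coding RNA that smooth muscle cells express, and mTmG is a Cre reporter that makes a membrane red protein and switches to a green one after recombination. One further colon library per genotype was made from single nuclei, with gene counts and counts of open chromatin regions per nucleus. The labels state neither the age of the mice nor a treatment, and they do not say in which cells Carmn was deleted or which part of it was removed. Whether libraries of a group came from separate mice is not stated either, so the p-values measure only the spread between these samples, which may be technical.

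Bulk libraries held 24254905 to 44315104 counts. Carmn itself went against the label: it stood at 461, 304 and 718 CPM (counts scaled to a common library size) in colon libraries labelled KO against 252, 171 and 351 in WT, and at 996, 817 and 909 in jejunum libraries labelled KO against 240, 206 and 326 in WT. In the nuclei it went with the label, at 662 CPM in WT and 220 in KO. Every bulk direction given here is thus that of the library labelled KO. The smooth muscle markers of the tissue were present in every bulk library. Their summed level was 33618 to 45106 CPM in KO colon and 49068 to 71266 in WT colon, without overlap. In jejunum it was 39177 to 42823 CPM in WT and 43327, 45923 and 89855 in KO, where m1 stood apart from the other libraries. Fewer cells of a type and less RNA per cell cannot be told apart in bulk tissue.

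Glucocorticoids are adrenal steroids that enter cells and bind the receptor encoded by Nr3c1, which is held in the cytoplasm by heat shock proteins and their co-chaperones. The bound receptor moves to the nucleus, binds DNA at glucocorticoid response elements and raises or lowers transcription. Hsd11b1 regenerates active hormone inside cells from its inactive keto form. Fkbp5, Tsc22d3 and Per1 are among the genes that respond in many tissues, and Fkbp5 closes a loop by lowering the receptor's affinity for hormone.

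In the mouse GRCm38 assembly, Hsd11b1 lies at chr1:193221634-193264075 on the minus strand. Fkbp5 lies at chr17:28399094-28517527 (minus), Tsc22d3 at chrX:140539528-140600659 (minus), Per1 at chr11:69095217-69109960 (plus) and Sgk1 at chr10:21882184-21999903 (plus). Cebpd lies at chr16:15887286-15891031 (plus), Zbtb16 at chr9:48654297-48836222 (minus), Errfi1 at chr4:150853919-150868892 (plus) and Apod at chr16:31296192-31314808 (minus). An exon of Cebpd overlaps an exon of Spidr on the opposite strand. The labels do not say whether the counting used strand, so reads of that stretch cannot be assigned to either gene and Cebpd values are uncertain to that extent.

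Promoter sequences of 4 of the members are shown because they hold the response element, or motifs of other inputs, in a gene whose expression is described next. RefSeq promoters (GRCm38.p6, 250 bases before to 50 after a start) were matched for 7 of the 10 members (all but Cebpd, Zbtb16 and Nr3c1). Each is printed in the direction of the gene. Capitals mark matches on either strand to AGAACA (the glucocorticoid receptor hexamer), AGAACA followed by any 3 bases and TGTTCT (the full palindromic element), CACGTG (E-box), TGACGTCA (cyclic AMP response element) or CCAAT.

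Sgk1, promoter 5, chr10:21993640-21993939, plus strand: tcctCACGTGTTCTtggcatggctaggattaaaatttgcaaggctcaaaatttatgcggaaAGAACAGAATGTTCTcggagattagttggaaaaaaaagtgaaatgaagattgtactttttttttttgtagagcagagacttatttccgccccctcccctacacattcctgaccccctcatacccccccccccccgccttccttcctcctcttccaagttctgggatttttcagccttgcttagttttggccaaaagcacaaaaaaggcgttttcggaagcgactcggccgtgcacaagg
Fkbp5, chr17:28486100-28486399, minus strand: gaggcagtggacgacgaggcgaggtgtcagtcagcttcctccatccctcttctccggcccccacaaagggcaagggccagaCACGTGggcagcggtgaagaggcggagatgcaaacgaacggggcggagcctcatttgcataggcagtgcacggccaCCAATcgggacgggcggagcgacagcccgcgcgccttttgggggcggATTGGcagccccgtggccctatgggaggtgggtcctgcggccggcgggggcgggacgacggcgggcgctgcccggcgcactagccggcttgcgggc
Per1, promoter 1, chr11:69098699-69098998, plus strand: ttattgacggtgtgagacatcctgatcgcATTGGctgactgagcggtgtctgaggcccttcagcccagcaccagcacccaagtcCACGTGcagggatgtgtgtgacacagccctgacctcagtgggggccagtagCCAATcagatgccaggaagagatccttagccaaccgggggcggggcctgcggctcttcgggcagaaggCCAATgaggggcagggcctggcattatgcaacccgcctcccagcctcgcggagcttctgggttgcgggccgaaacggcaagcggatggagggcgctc
Errfi1, promoter 2, chr4:150854820-150855119, plus strand: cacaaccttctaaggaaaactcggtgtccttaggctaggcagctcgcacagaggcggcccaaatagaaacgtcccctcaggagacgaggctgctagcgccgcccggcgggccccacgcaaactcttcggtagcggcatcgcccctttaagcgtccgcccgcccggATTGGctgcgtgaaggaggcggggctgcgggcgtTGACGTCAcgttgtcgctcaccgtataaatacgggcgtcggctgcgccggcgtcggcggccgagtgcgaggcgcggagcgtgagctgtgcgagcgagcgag

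The full element was found in 3 of 32851 promoters (0.00913%), and 1 of the 3 was promoter 5 of Sgk1, at positions -189 to -175 from the start. The 5′ end of that promoter also holds an E-box at -246 to -241 that overlaps a TGTTCT by 2 bases. The hexamer AGAACA was present in 19.0% of all promoters, the E-box in 7.15%, the cyclic AMP response element in 1.79% and CCAAT in 37.4%. Fkbp5 holds an E-box at -169 to -164 and Per1 promoter 1 holds one at -166 to -161, while Errfi1 promoter 2 holds the cyclic AMP response element at -51 to -44. These matches describe the letters of the window, and no site was tested for binding.

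Of the 10 members, 9 had a higher mean and the receptor a lower mean in libraries labelled KO, in colon and in jejunum. Groups did not overlap in the higher direction for 7 members in colon (8.79% of all genes) and 7 in jejunum (11.0%), for 6 of them in both tissues (2.9%), and in the lower direction for Nr3c1 (10.4% and 11.2% of all genes). This contrast chose the members, so nothing is read from these counts. Nr3c1, the receptor, stood at 87.0, 68.8 and 80.6 CPM in KO colon m1, t4 and t6 and at 114, 149 and 106 in WT colon t1, t6 and t7. In jejunum it stood at 74.8, 111 and 97.4 CPM in KO m1, t1 and t4 and at 140, 177 and 136 in WT t1, t6 and t7. All 3 KO libraries lay below all 3 WT libraries in each tissue. The log2 fold change was -0.64 (SE 0.20) in colon and -0.68 (SE 0.20) in jejunum. Nr3c1 also had the smallest spread among replicates of the 10, with a pooled standard deviation (SD) of 0.24 on the log2 CPM scale.

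Hsd11b1 stood at 20.4, 25.7 and 15.7 CPM in KO colon and at 5.59, 7.31 and 6.59 in WT colon. In jejunum the values were 52.6, 29.7 and 47.5 CPM in KO and 5.71, 4.57 and 0.719 in WT. Groups did not overlap in either tissue, and WT jejunum t7 stood apart as the lowest library, with 27 counts. The log2 fold change was 1.66 (SE 0.54) in colon and 3.57 (SE 0.59) in jejunum. Of the members it had the widest spread among replicates, with an SD of 0.85 on the log2 scale.

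Fkbp5, the co-chaperone of the receptor, stood at 125, 149 and 194 CPM in KO colon and at 25.1, 45.4 and 22.0 in WT colon. In KO jejunum it was at 211, 187 and 212 CPM, against 34.9, 63.0 and 35.0 in WT. The lowest KO library was above the highest WT library in both tissues, and the t6 library was the highest of the WT libraries in both. The fold was 5.04 in colon (log2 2.33, SE 0.32) and 4.59 in jejunum (log2 2.2, SE 0.32).

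Tsc22d3 encodes GILZ, a leucine zipper protein with anti-inflammatory action. It stood at 141, 76.0 and 234 CPM in KO colon against 58.1, 69.5 and 46.2 in WT, and at 149, 199 and 193 in KO jejunum against 104, 108 and 72.6 in WT. Groups did not overlap, although KO colon t4 was only just above WT colon t6. On the log2 scale KO exceeded WT by 1.37 (SE 0.34) in colon and 0.92 (SE 0.34) in jejunum.

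Per1, a component of the circadian clock, stood at 255, 186 and 540 CPM in KO colon against 78.9, 136 and 73.9 in WT. In jejunum it stood at 157, 230 and 223 CPM in KO against 86.5, 212 and 101 in WT. Colon groups did not overlap, but in jejunum WT t6 lay above KO m1. KO exceeded WT by 1.76 on the log2 scale (SE 0.45) in colon and 0.61 (SE 0.44) in jejunum.

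Sgk1, a kinase that regulates ion channels and transporters, stood at 46.2, 85.7 and 91.4 CPM in KO colon against 70.3, 28.2 and 19.8 in WT, where t1 lay above a KO library. In jejunum the values were 45.0, 60.3 and 63.1 CPM in KO and 33.7, 28.6 and 25 in WT, without overlap. Log2 fold changes were 0.92 (SE 0.41) in colon and 0.95 (SE 0.41) in jejunum. Without WT colon t1 the colon value was 1.66.

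Cebpd encodes a basic leucine zipper transcription factor. It stood at 477, 691 and 440 CPM in KO colon against 104, 75.2 and 72.1 in WT, and at 206, 156 and 371 in KO jejunum against 99.3, 46.6 and 27.4 in WT. All KO libraries lay above all WT libraries of their tissue. The log2 fold change was 2.68 (SE 0.47) in colon and 2.08 (SE 0.46) in jejunum, where it was 2.71 without WT jejunum t1.

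Zbtb16, a zinc finger transcription factor, stood at 227, 81.8 and 375 CPM in KO colon against 96.3, 79.9 and 74.6 in WT. In jejunum it stood at 112, 184 and 215 CPM in KO against 108, 122 and 87.8 in WT. It was the member whose groups overlapped in both tissues, since KO colon t4 and KO jejunum m1 lay within the WT range. The log2 fold change was 1.45 (SE 0.44) in colon and 0.69 (SE 0.43) in jejunum.

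Errfi1, a feedback inhibitor of the epidermal growth factor receptor, stood at 160, 240 and 186 CPM in KO colon against 49.3, 35.8 and 43.5 in WT. In jejunum it stood at 88.8, 85.2 and 74.9 CPM in KO against 36.6, 30.2 and 23.9 in WT. The groups stood well apart in both tissues. The fold was 4.56 in colon (log2 2.19, SE 0.21) and 2.74 in jejunum (log2 1.46, SE 0.21).

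Apod, a secreted lipid carrier of the lipocalin family, stood at 169, 108 and 382 CPM in KO colon against 21.4, 23.8 and 26.7 in WT. In jejunum it stood at 149, 57.5 and 109 CPM in KO against 10.2, 9.70 and 7.57 in WT. Groups did not overlap. The colon fold was 9.16 (log2 3.20, SE 0.46), the largest of the 10 members with all libraries, but without KO colon t6 the log2 value was 2.55, below the 2.83 of Cebpd in the same fit. The jejunum fold was 11.5 (log2 3.52, SE 0.47), next to 11.8 for Hsd11b1.

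**Figure D1:**
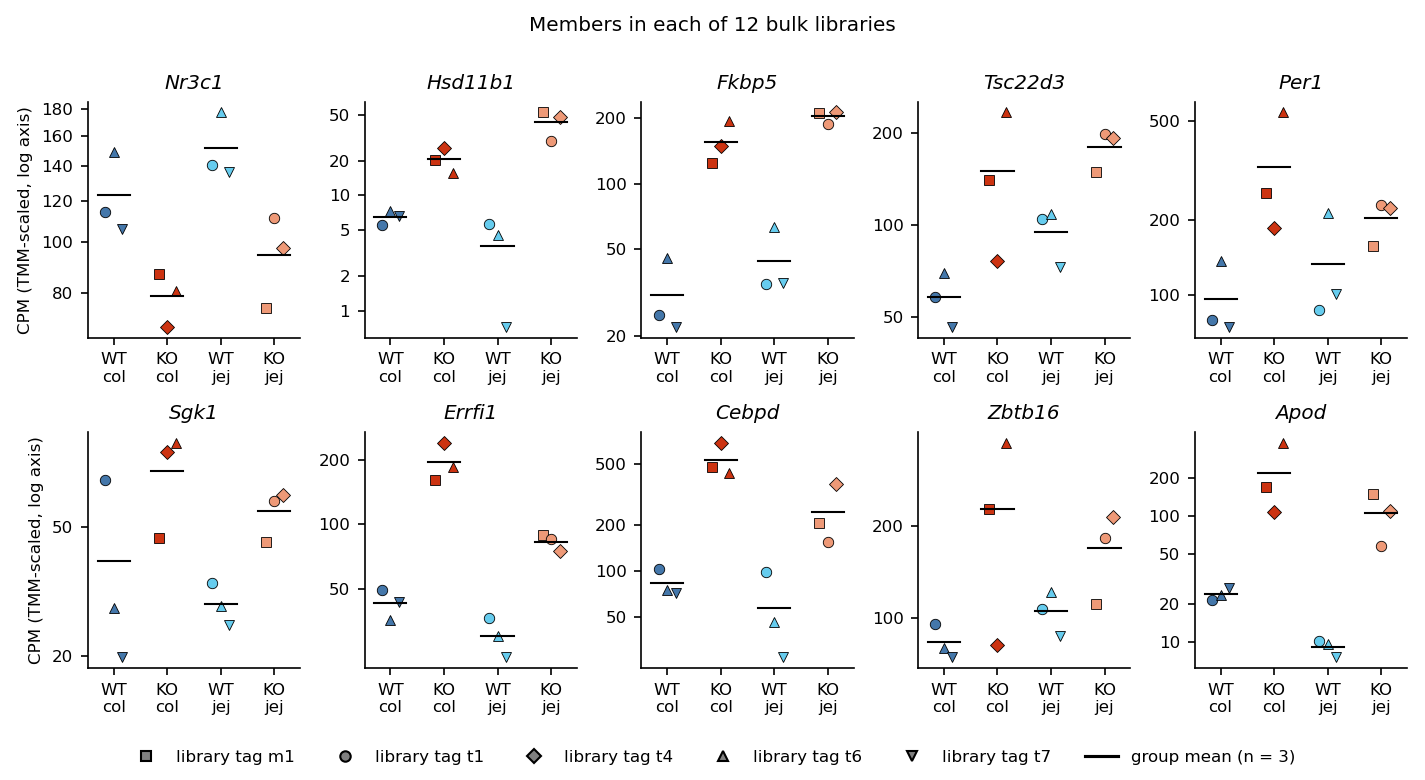
CPM on a log axis for each of the 10 members in the 12 bulk libraries, 1 point per library, grouped by tissue and label. The KO points of Fkbp5, Cebpd, Hsd11b1, Errfi1 and Apod lie above the WT points of their tissue, and those of Nr3c1 lie below.

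By edgeR's quasi-likelihood test over 20886 genes, 4 members (Fkbp5, Cebpd, Errfi1 and Apod) were past an adjusted p of 0.05 in colon, where 0.388% of genes were, and 4 (Fkbp5, Hsd11b1, Errfi1 and Apod) in jejunum, where 0.215% were. Again nothing is read from these counts, since the contrasts chose the members. Leaving out 1 library at a time, 1 to 5 members were past the threshold in colon and 0 to 4 in jejunum. The colon count was 1 without WT colon t1 and 2 without KO colon t6 or WT colon t6. The jejunum count was 0 without KO jejunum t4 or WT jejunum t1, 1 without KO jejunum m1 or either other WT jejunum library and 2 without KO jejunum t1. DESeq2 put 8 members past the threshold in colon, where it called 4.6% of all genes, and 5 in jejunum, where it called 3.85%. A fit of the libraries of 1 tissue alone put 0 of them past it in colon (0.0% of genes) and 2 in jejunum (0.109%). The direction of every member was the same in each of the 21 fits.

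Per kilobase of exon, so that genes can be compared, WT colon libraries held the most Cebpd (22.4 CPM per kb), followed by Per1 (17.1), Nr3c1 (16) and Zbtb16 (15.8), and the least Hsd11b1 (1.53). In WT jejunum Per1 was highest at 23.6, with Tsc22d3 at 21.9, and Hsd11b1 was again lowest at 0.863. In KO colon the order was led by Cebpd (143) and Apod (85.2), in KO jejunum by Cebpd (65.3) and Tsc22d3 (41.5). Neighbours such as Per1, Nr3c1 and Zbtb16 in WT colon stood within the replicate spread of one another.

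The rule did not use the difference between the wild-type tissues. Apod differed most between them among the members, at 24.0 ± 2.61 CPM in WT colon and 9.14 ± 1.39 in WT jejunum (SD, n = 3), a log2 difference of 1.39 (SE 0.44, edgeR adjusted p = 0.169). Tsc22d3 lay lower in WT colon and Apod higher, each without overlap (11.7% of all genes lower and 11.2% higher). Tsc22d3 stood at 58.0 ± 11.7 against 95.1 ± 19.6 CPM (SD, n = 3), a log2 difference of -0.71 (SE 0.34, edgeR adjusted p = 0.405). Of the 10 members, 0 passed the threshold in edgeR, where 1.56% of all genes did. At an unadjusted p below 0.05 in edgeR were 2, Errfi1 and Apod, as were 2744 of all 20886 genes. Apod passed with DESeq2 (log2 1.37, adjusted p = 0.0438), which called 5.55% of genes, and when edgeR was fitted to the WT libraries alone (log2 1.38, adjusted p = 0.00616), where 4.66% were called.

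The change between labels was also compared between the tissues. Several members were listed because they were higher in both tissues, which can draw this difference toward 0. Their values here are therefore a description, and nothing is read from how many passed. The Hsd11b1 change in colon minus that in jejunum was -1.90 on the log2 scale (SE 0.76, edgeR adjusted p = 0.941), and that of Errfi1 was 0.73 (SE 0.29, edgeR adjusted p = 0.941). Of all genes, 0.0% and of the members 0 passed in edgeR, with 869 genes and these 2 members at an unadjusted p below 0.05. DESeq2 gave 37 genes and limma voom 0. The other members differed by -0.33 (Apod) to 1.15 (Per1), each with an edgeR adjusted p of at least 0.941.

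**Figure D2:**
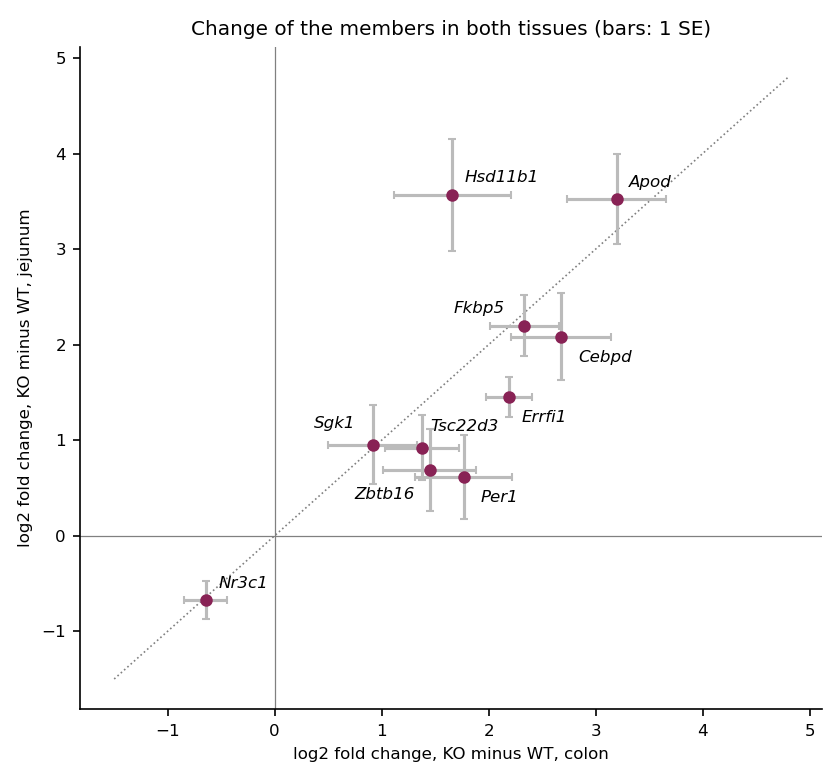
Log2 fold change of each member, KO minus WT, in colon (x axis) against jejunum (y axis), with bars of 1 standard error. Points for 9 members lie above 0 on both axes and Nr3c1 lies at -0.64 and -0.68.

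The libraries within a group did not move alike. After removal of the 4 group means from log2 CPM, Tsc22d3 and Zbtb16 had a Pearson r of 0.92 over the 12 libraries, Fkbp5 and Per1 of 0.80, and Per1 and Tsc22d3 of 0.80. Leaving out 1 library at a time, these 3 values ranged from 0.79 to 0.96, 0.70 to 0.89 and 0.64 to 0.92. Cebpd and Hsd11b1 had an r of 0.74 (0.55 to 0.83), while Per1 and Errfi1 had -0.41 (-0.64 without WT jejunum t7, and up to -0.20). KO colon t6 was high and t4 low for Per1, Tsc22d3, Zbtb16 and Apod, and the WT t6 libraries of both tissues were high for Fkbp5 and Per1. These values describe deviations that share libraries and depth.

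**Figure D3:**
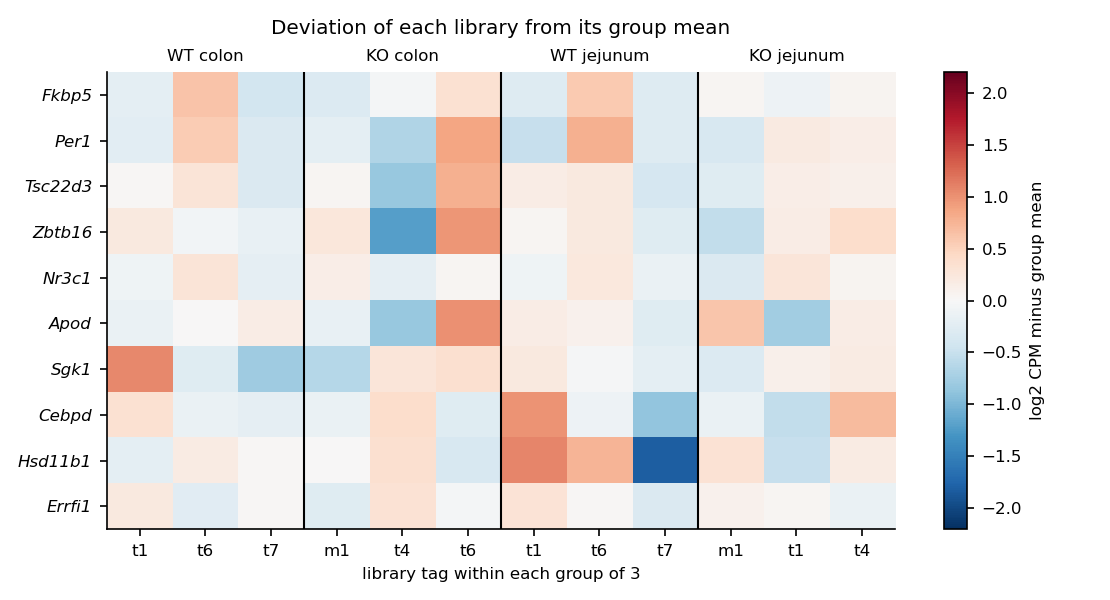
Deviation of log2 CPM from the mean of its group for the 10 members (rows) in the 12 bulk libraries (columns), as a colour scale. Per1, Tsc22d3 and Zbtb16 are high together in KO colon t6 and low together in KO colon t4, and Hsd11b1 is low in WT jejunum t7.

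Other genes of the pathway were taken from 24 further response genes, listed by name with earlier results known. The gene lists that follow were made in the same way, and the genes named had the smallest p of their list. Their p-values and counts of calls are therefore a description, and nothing is read from how many passed. In colon 20 of the 24 were higher in the libraries labelled KO (median on the log2 scale 0.62, against 0.00 over all genes). There 1 passed the test in edgeR (0.388% of all genes) and 8 with DESeq2 (4.6%). In jejunum 18 were higher, with a median of 0.54 against 0.02. There 2 passed in edgeR (0.215% of all genes) and 6 with DESeq2 (3.85%). Mt1, a metallothionein that binds zinc and copper, rose from 23.7 ± 1.99 to 214 ± 101 CPM (SD, n = 3) in colon (log2 3.17, SE 0.43, edgeR adjusted p = 0.0189). That call was lost in 4 of 21 fits, those of the colon libraries alone and without KO colon t6, WT colon t1 or WT colon t6, with an adjusted p of up to 0.117. Mt1 also rose in jejunum (log2 2.52, SE 0.41, edgeR adjusted p = 0.0419), but there the call was lost in 11 of 21 fits, with an adjusted p of up to 0.218. Cdkn1a, the cell cycle inhibitor p21, rose in jejunum from 24.8 ± 1.96 to 143 ± 18.7 CPM (SD, n = 3; log2 2.53, SE 0.26, edgeR adjusted p = 0.00766), a call lost without WT jejunum t7 (adjusted p = 0.0532). In colon its log2 fold change was 0.94 (edgeR adjusted p = 0.137). Mt2 (log2 4.10 in colon, 3.12 in jejunum), Ddit4 (2.48 and 2.24) and the phosphatase gene Dusp1 (1.87 and 1.36) did not overlap between groups in either tissue and did not pass. Of all genes, 2.9% were higher without overlap in both tissues.

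Of 14 receptor, chaperone, coregulator and steroid enzyme genes, 6 were higher in colon and 3 in jejunum, and 0 passed in edgeR. At an unadjusted p below 0.05 in edgeR were 3 in colon and 2 in jejunum, as were 3026 and 2762 of all 20886 genes. DESeq2 and limma voom called 0. Fkbp4, the co-chaperone that opposes Fkbp5 at the receptor, had log2 fold changes of -0.72 and -0.77 (edgeR adjusted p = 0.190 and 0.189). H6pd, which supplies the cofactor of Hsd11b1, had 0.83 in colon and 0.47 in jejunum. Hsp90aa1, the inducible HSP90 that holds the receptor, had -0.97 in colon, where Ncoa1 had 0.30 and Hspa8 -0.41, and in jejunum Ncoa2 had -0.47 and Hsd11b2 1.68. Nr3c2, the mineralocorticoid receptor, had -1.01 in jejunum (SE 0.50, edgeR adjusted p = 0.416).

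Immediate early genes, which respond within minutes to many stimuli, and genes of the circadian clock were measured in the same libraries. Of 12 immediate early genes 11 were higher in libraries labelled KO in each tissue, with medians of 1.31 and 1.38 on the log2 scale, and 0 passed in edgeR, with 7 and 9 at an unadjusted p below 0.05. DESeq2 called 6 in each tissue and limma voom 0. The smallest p-values were those of Zfp36 (log2 1.36), Ier2 (1.80) and Junb (2.18) in colon and of Fosb (2.18, edgeR adjusted p = 0.0527), Junb (2.05) and Myc (1.4) in jejunum. Their summed level was 1035 to 2056 CPM in KO colon against 575 to 771 in WT, and 643 to 1375 against 334 to 626 in jejunum. Of the clock genes other than Per1, 0 of 14 passed in edgeR in either tissue, with 1 and 3 at an unadjusted p below 0.05 and 0 and 1 called by DESeq2, and limma voom called 0. They had medians of 0.18 and -0.65. Those with the smallest p were Bhlhe40 (1.10), Cry2 (0.82) and Cry1 (0.83) in colon and Nr1d1 (-1.58), Dbp (-2.39) and Bhlhe40 (0.82) in jejunum. Summed macrophage markers stood at 650 to 1504 CPM in KO jejunum and 278 to 651 in WT jejunum, but at 429 to 990 against 684 to 1428 in colon. In jejunum mural markers summed to 2170 to 3504 CPM in KO and 4095 to 5487 in WT. Neuron markers there summed to 362 to 435 and 457 to 570, and blood endothelial markers to 275 to 513 and 111 to 261. Each was without overlap. By gene, however, 5 of the 6 mural markers were higher in KO jejunum (median log2 fold change 0.4). Skeletal muscle markers summed to 21.4 to 30.4 CPM in KO colon and 77.2 to 119 in WT colon, and to 41.6 to 94.4 and 117 to 131 in jejunum. By gene, 4 of the 6 tested were higher in KO jejunum (median 0.11). The jejunum sums of mural and skeletal muscle markers thus do not give the direction of most of their genes. In colon adipocyte markers summed to 33.7 to 116 and 120 to 183, and epithelial markers ranged from 81.7 to 3589 CPM in WT colon alone. The part of these lists, or of the smooth muscle markers, in the members' values was not tested.

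**Figure D4:**
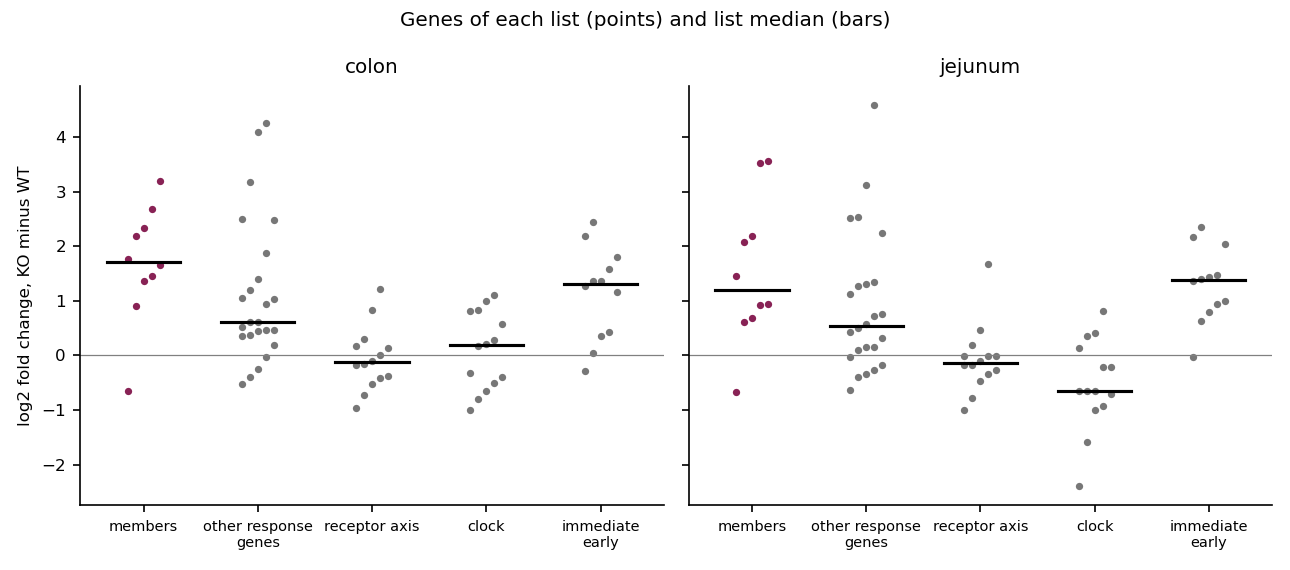
Log2 fold change, KO minus WT, of single genes in each listed group, in colon and jejunum, with 1 point per gene and a bar at each list's median. Median values are 0.62 and 0.54 for the other response genes and 1.31 and 1.38 for the immediate early genes, against 0.00 and 0.02 over all genes.

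The genes whose profile over the 12 libraries was most like the mean of the 8 response members were Sik1 (Pearson r 0.969), Esyt2 (0.951), Map3k6 (0.944), Ptgs1 (0.941), Pcbp2 (0.937), Slc3a2 (0.935), Ubac2 (0.929) and Bcl2l1 (0.926), of 14271 genes compared. Sik1, a salt-inducible kinase, stood at 120 ± 33.3 CPM in KO colon against 38.6 ± 2.43 in WT and at 96.8 ± 17.2 against 38.9 ± 5.16 in jejunum (SD, n = 3). These correlations hold the difference between the labels, and with group means removed r was 0.690 for Sik1 and 0.752 for Ubac2.

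The colon nuclei gave a second view of the members by cell type. Of 3476 WT and 2164 KO barcodes, 11 were found in both libraries. After filtering, 2636 WT nuclei (median 1698 UMIs, unique molecular identifiers) and 1594 KO nuclei (median 1986.5) were kept. There was 1 library per genotype, so no test was possible and the 95% intervals cover counting error only. Clusters were made without the members and the pathway genes, and 12 classes were named from markers.

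Over all nuclei 9 of the 10 members had a higher CPM in KO, where 56.1% of genes with at least 20 UMIs did, and 6 were at least 1.5-fold higher, where 16.9% were. Fkbp5 stood at 99.6 CPM in WT and 297 in KO (ratio 2.98, interval 2.74 to 3.24), Cebpd at 15.3 and 49.7 (ratio 3.24, 2.63 to 4.02) and Apod at 19.0 and 74.1 (ratio 3.91, 3.25 to 4.71). Sgk1 had a ratio of 1.70 (1.34 to 2.16), Tsc22d3 of 1.61 (1.36 to 1.91) and Errfi1 of 1.37 (1.12 to 1.66). Per1 had a ratio of 1.23 (1.07 to 1.41) and Zbtb16 of 1.19 (1.13 to 1.25), and for Hsd11b1 (1.61) the interval of 0.978 to 2.66 included 1. Nr3c1 was the member below 1, at 192 and 169 CPM (ratio 0.878, 0.811 to 0.951). These ratios pool classes whose shares differed between the libraries. Macrophage-like nuclei were 1.9% of WT and 8.85% of KO nuclei, glia-like 19.4% and 11.98%, and epithelial-like 13.9% and 8.59%. Macrophage-like nuclei held 2.42% of the Fkbp5 UMIs in WT and 15.04% in KO. The part of class shares in the ratios over all nuclei was not tested.

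Smooth muscle-like nuclei were 684 in WT (25.9%) and 270 in KO (16.9%). Of the KO nuclei 71 fell in a cluster with 1 WT nucleus, which may be that library and not a type. A further cluster of 181 WT and 151 KO nuclei had 8 of the 10 smooth muscle markers raised but was left unnamed by the naming rule, since its leading genes held a mural marker and no smooth muscle marker. In the clustering without doublet removal the class held 866 WT and 422 KO nuclei. Of the 7 members with at least 20 UMIs in the class of 684 and 270 nuclei, 5 had a higher CPM in KO (55.4% of such genes). At least 1.5-fold higher were 4 (18.6%). The floor of 20 UMIs can keep a member through its KO counts, as for Cebpd (6 WT and 38 KO UMIs). Nothing is therefore read from these counts. Without the cluster that is nearly KO alone, 6 members had at least 20 UMIs and 5 of them were higher. Only 2, Fkbp5 and Errfi1, were then at least 1.5-fold higher, and the share of all genes was not computed for that count. Fkbp5 stood at 97.9 and 228 CPM (ratio 2.33, 1.90 to 2.86), Errfi1 at 18.2 and 49.4 (2.72, 1.71 to 4.39) and Per1 at 51.2 and 78.9 (1.54, 1.12 to 2.11). Cebpd rested on 6 and 38 UMIs (ratio 12.1, 5.08 to 35.1), and its ratio was 6.02 without the cluster that is nearly KO alone. Zbtb16 stood at 648 and 752 CPM (1.16), and Nr3c1 at 196 and 162 CPM (0.825, 0.679 to 0.999). Tsc22d3 was not higher in KO, at 13.8 and 12.6 CPM on 25 and 12 UMIs (0.918, 0.420 to 1.90). Its CPM was higher in KO without the cluster that is nearly KO alone. In the unnamed cluster Fkbp5 had a ratio of 1.54 (1.07 to 2.24), Zbtb16 of 0.850 (0.739 to 0.979) and Nr3c1 of 0.430 (0.317 to 0.579). The clusters of the class differed among themselves: the Fkbp5 ratio was 3.01 (2.33 to 3.87) in the larger and 0.993 (0.439 to 2.05) in the smaller of those with nuclei of both libraries, and the smaller had only 4 of the 10 markers raised. Hsd11b1 (1 and 0 UMIs), Sgk1 (7 and 12) and Apod (4 and 9) were too sparse there to read.

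By class, Fkbp5 had a higher CPM in KO in 12 of 12, with an interval above 1 in 11. The exception was the neuron-like class. The T lymphocyte-like class rested on 2 WT and 25 KO UMIs and the B lymphocyte-like class on 3 and 40. Fkbp5 was highest in macrophage-like nuclei, at 240 CPM in WT and 1126 in KO (ratio 4.69, 2.98 to 7.81). The WT value rested on 50 nuclei and 20 UMIs. Smooth muscle markers in that class summed to 4594 CPM in WT, above the 3526 of its macrophage markers. In KO the same sums were 1955 and 6573, so the class was not alike in the libraries. Most Apod UMIs lay in glia-like nuclei, 68.8% in WT and 57.0% in KO, where it stood at 83.9 and 414 CPM (ratio 4.93, 3.92 to 6.23). A further 120 of its 453 KO UMIs lay in an unnamed cluster of very high UMI counts. Smooth muscle markers had UMIs in every class. They summed to 21216 CPM in WT smooth muscle-like nuclei, and to 8171 in T lymphocyte-like and 7108 in lymphatic endothelial-like nuclei, above the 5734 and 6842 of the markers of those classes. The part of free or shared RNA in the values by class was not tested.

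Cebpd was higher in KO glia-like nuclei (42.7 and 112 CPM, ratio 2.63) and in mesothelial-like nuclei (15.9 and 79.9, ratio 5.03; 5.53 and 2.28 in its 2 clusters). Mesothelial-like nuclei held 30.2% of the Tsc22d3 UMIs in WT and 44.3% in KO, at 138 and 160 CPM. Within the 2 clusters of that class, which the libraries shared unequally (269 and 77 WT nuclei, 175 and 87 KO nuclei), Tsc22d3 was no higher in KO: 120 and 113 CPM (ratio 0.936) in the first and 237 and 218 (ratio 0.921) in the other. Zbtb16 was highest in fibroblast-like nuclei, at 910 CPM in WT and 834 in KO. Its ratio was 2.62 in macrophage-like and 2.07 in interstitial cell of Cajal-like nuclei and 0.532 in blood endothelial-like nuclei. Nr3c1 was lower with an interval below 1 in 3 classes: fibroblast-like (ratio 0.528), lymphatic endothelial-like (0.502) and smooth muscle-like nuclei. A cluster of 36 WT and 71 KO nuclei had 8 of 8 fibroblast markers raised but was left unnamed. Its leading genes held a B lymphocyte marker and no fibroblast marker. The fibroblast-like values of Zbtb16 and Nr3c1 leave that cluster out. Epithelial-like nuclei held less Errfi1 in KO (88.8 and 40.5 CPM, ratio 0.456, 0.216 to 0.873) and more Sgk1 (17.2 and 69.9 CPM, ratio 4.07). That class pooled 3 clusters in unequal mixes (176, 117 and 74 WT nuclei, 43, 79 and 15 KO nuclei). The Errfi1 ratio within them was 0.951, 0.299 and 0.407, each with an interval that included 1, and the Sgk1 ratio was 14.3, 2.33 and 3.10. Sgk1 rested on 12 WT and 19 KO UMIs over the 3 clusters together, so its ratios by cluster were too sparse to read.

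**Figure D5:**
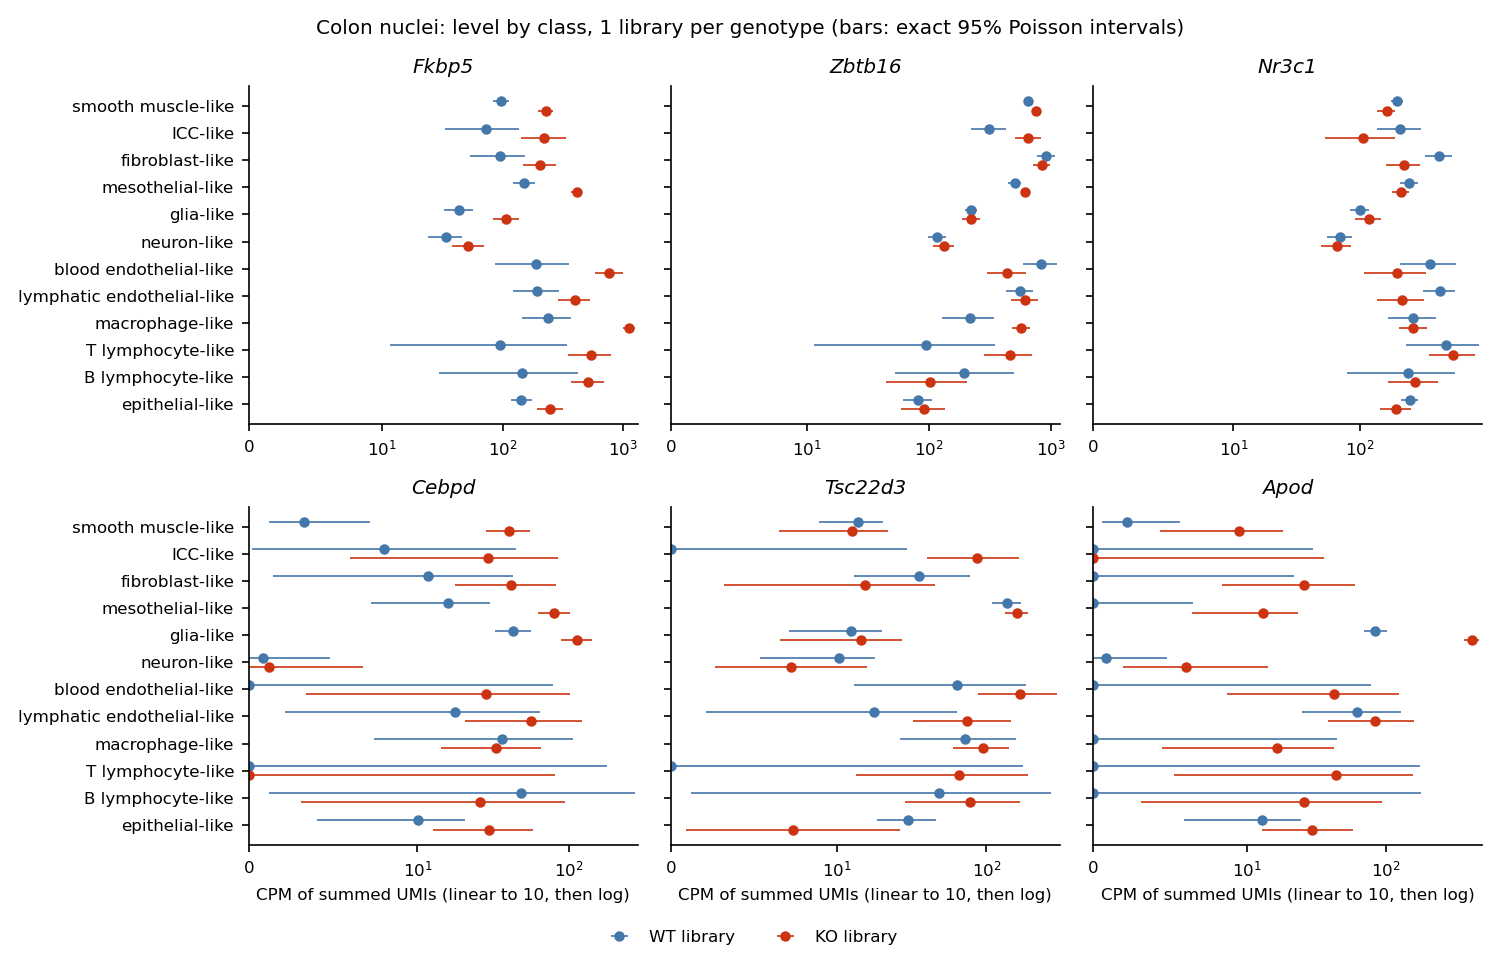
CPM of summed UMIs (x axis, linear to 10 and log above) of Fkbp5, Zbtb16, Nr3c1, Cebpd, Tsc22d3 and Apod in 12 classes of colon nuclei (y axis), with 1 point per library (blue WT, red KO) and bars for exact 95% Poisson intervals. The KO point of Fkbp5 lies above the WT point in 12 of 12 classes, that of Nr3c1 below it in 8, and Apod is highest in glia-like nuclei.

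Other pathway genes were read in the same nuclei. Their values are over all nuclei unless a class is named, and the part of class shares in them was not tested either. Mt1 had 9.90 CPM in WT and 56.1 in KO (ratio 5.66), and the ratios of Mt2, Dusp1 and Cdkn1a were 4.98, 2.93 and 2.67. Of the 24 other response genes 21 had a higher CPM in KO (56.1% of all genes with at least 20 UMIs), with a median ratio of 1.4. Nr3c2 stood at 511 and 220 CPM (ratio 0.431). Of the 14 receptor, chaperone, coregulator and steroid enzyme genes 8 had a higher CPM in KO (56.1% of all genes with at least 20 UMIs), with a median ratio of 1.03. Hsp90aa1 (40.9 and 61.5 CPM) and Hspa8 (38.5 and 74.1) were higher in KO nuclei but lower in KO colon bulk libraries. Their ratios in smooth muscle-like nuclei were 2.05 and 2.35. Ncoa1 (ratio 0.901) also went against its bulk direction in colon, while Fkbp4 (0.962) and H6pd (1.74) went with theirs. Of 12 immediate early genes 6 were higher over all nuclei (56.1% of all genes with at least 20 UMIs), with a median ratio of 1.0. In smooth muscle-like nuclei 6 of the 6 with at least 20 UMIs were higher (55.4% of such genes). That floor can keep a gene through its KO counts, as for Junb (7 WT and 30 KO UMIs). It left out Fos (11 and 3) and Egr1 (8 and 0), so nothing is read from this count. Clock genes other than Per1 had a median ratio of 0.839, with 4 of 14 higher.

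Open chromatin regions were listed separately per library, 35003 in WT and 26493 in KO, so the absence of a region and the shorter list cannot be told apart. Within 1000 bases of the outermost annotated start of the gene, 4 members had a WT region (Fkbp5, Per1, Zbtb16 and Errfi1), against 51.3% of 21951 protein-coding genes, and 3 had a KO region (Cebpd, Per1 and Errfi1), against 43.9%. Over all annotated starts of a gene, 7 members had a WT region and 6 a KO region, Fkbp5 among them in both libraries, and the share of all genes was not computed for that count. The region at Cebpd, chr16:15886871-15887748, held 93.0 CPM of region counts in KO. At Per1 the region held 130 in WT and 155 in KO. The printed Per1 promoter lay outside that region, 3250 bases from it in WT and 3281 in KO. The printed Fkbp5 and Errfi1 promoters lay within an open region of both libraries. The Sgk1 promoter with the full element lay in none, and the element was 288 bases from the nearest WT region and 311 from the nearest KO region.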

How the data were processed

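The authors deposited a table of whole-number counts per gene for the bulk libraries, made with STAR 2.0.4b and featureCounts 1.4.5 on GRCm38/mm10 per the submitters' processing notes, and UMI counts per nucleus made with Cell Ranger (cellranger-arc 2.0.0 per the file headers). The 10 members and all gene lists were chosen with earlier results of these data known. Of 40757 rows, 276 identical repeats were dropped. Replicates differed beyond counting noise (chi-square per gene at least 57.1). Counts were scaled by TMM and fitted with edgeR 4.0.16 (quasi-likelihood, 1 mean per group, Benjamini-Hochberg adjustment, adjusted p below 0.05), checked on simulated data. limma 3.58.1 and DESeq2 1.42.0 were alternatives. Named genes were the members, the 5 smallest p per tissue in each pathway list (3 for clock and immediate early genes) and the 8 genes most like the members.

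Nuclei had at least 500 UMIs, 300 genes and under 5% mitochondrial UMIs, and were clustered with scanpy 1.11.5 (Leiden, resolution 0.8). Every deposited gene value in the nuclei was even (0.0% odd), so values were divided by 2 and read as UMIs, an inference from the values. The rule for naming classes was set after seeing the data. The doublet caller marked 3 WT barcodes, which were removed. It had not worked, so other doublets may remain.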

Additional observations from a re-analysis of the deposited data

How the results depend on the processing

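The direction of all 10 members, KO minus WT, was the same in the 21 fits of each tissue. Counts of genes past the threshold moved more. In colon 81 genes became 960 with DESeq2, 0 when only colon libraries were fitted and 309 without KO colon t4 and KO jejunum m1 together, a choice made after seeing the data; leaving out 1 library gave 7 to 180. In jejunum 45 genes became 26 with total counts, 805 with DESeq2, 87 with limma voom, 76 with limma voom and a replicate block, 21 with jejunum libraries only and 145 without both libraries; leaving out 1 gave 2 to 172. The difference between tissues had 37 genes with DESeq2 and 0 to 1 when 1 library was left out. WT colon against WT jejunum had 325 genes, and 1160 with DESeq2, 29 with a replicate block in edgeR, 904 with WT libraries only, 1056 without both, and 79 to 557 leaving out 1; 1 member, Apod, passed with DESeq2 and with WT libraries only. The labels do not say whether a shared replicate number marks a shared mouse. Correlations of deviations between tissues ranged from -0.163 to 0.1 for libraries with the same number. For other pairs of a genotype they ranged from -0.39 to 0.348. With 3 libraries per group these values cannot decide whether the numbers pair samples.

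Differences of the member changes between tissues that were near 0 changed sign: Fkbp5 to -0.1 with a replicate block and -0.17 to 0.56 over all settings, Cebpd from -0.0 to 1.06, Tsc22d3 to -0.0 with a replicate block, Sgk1 to 0.0 with no filter, 0.1 with voom and 0.01 with a replicate block, -0.32 to 0.72 leaving out 1 library, Nr3c1 from -0.07 to 0.22, and Apod -0.96 to 0.06 leaving out 1 library and 0.38 without both. Sgk1 between WT tissues ranged from -0.33 (without WT colon t1) to 0.71. The Apod ratio in smooth muscle-like nuclei became 0.903 at Leiden resolution 0.5 and without the cluster that is nearly KO alone. The causes were not tested. Intervals of members with few UMIs in a class were wide.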
